A study of Rattus norvegicus with 6 samples.

Results

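The 10 genes described here encode the inflammasome and the machinery of lytic cell death, in the pancreas of Sprague-Dawley rats. They were chosen by name, as Nlrp3, Pycard, Casp1, Casp4, Gsdmd, Ninj1, Il1b, Il18, Ripk3 and Mlkl, and all 10 were present among the 34001 genes of the deposited expression matrix. RNA sequencing covered 6 rats in 3 groups of 2, with tissue taken 24 h after the operation. Control rats had a laparotomy in which the pancreas was only turned over with swabs, followed by about 1 ml of saline into the tail vein. TP (traumatic pancreatitis) rats had the pancreas crushed with an impactor set to 3 cm2/10 kg and received the same volume of saline. TP+hucMSC-Exs rats had the same crush and received 10 μg per 100 g of exosomes, small vesicles secreted here by mesenchymal stem cells of the human umbilical cord, through the tail vein. All 3 groups therefore shared anaesthesia and laparotomy, and no group was left unoperated. Values are TPM (transcripts per 1000000, corrected for gene length), so levels of different genes can be set side by side, but the number of reads behind a value is unknown.

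Pyroptosis and necroptosis are programmed forms of cell death in which the plasma membrane breaks and the cell contents escape. In pyroptosis a sensor such as NLRP3 assembles with the adaptor ASC, the product of Pycard, into an inflammasome that activates caspase-1. Caspase-1 matures the cytokines IL-1β and IL-18 and cleaves gasdermin D, whose fragment opens membrane pores, while caspase-11, encoded by Casp4, cleaves gasdermin D after sensing bacterial lipopolysaccharide inside the cell. NINJ1 then ruptures the membrane, and in necroptosis RIPK3 phosphorylates MLKL, which permeabilizes the membrane without a caspase. In acute pancreatitis these genes are known both from infiltrating myeloid cells and from injured acinar cells, the enzyme-secreting cells of the organ. Transcript levels say nothing of the cleavage or phosphorylation by which these proteins act.

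The start sites of 8 members are listed in the RefSeq promoter table of the GRCr8 assembly, which holds 250 bases before to 50 bases after each start; Casp4 and Gsdmd have no entry. The 8 promoters were searched on both strands for motifs whose factors are known to drive inflammasome genes. These were the NF-kappaB consensus and the core of the interferon-stimulated response element. That core is a pair of GAAA tetramers spaced by a pair of free bases. The interferon core was found in 1 of the 8, Casp1, against 3.92% of all 33469 promoters. The NF-kappaB consensus was found in 0 of the 8, against 7.51% of all promoters, which says only that these letters are not in this window. The 100 bases before the start are shown for Casp1, which holds the match, and for Il1b and Ninj1, the member with the largest estimate after injury and the most abundant member. Capitals mark the interferon core, which lies on the opposite strand at bases 28 to 19 before the start. The Casp1 stretch is chr8:10872730-10872829 on the plus strand, the Il1b stretch chr3:137036582-137036681 on the minus strand and the Ninj1 stretch chr17:15668032-15668131 on the minus strand.
Casp1: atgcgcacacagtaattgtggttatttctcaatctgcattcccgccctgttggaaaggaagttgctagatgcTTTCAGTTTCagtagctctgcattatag
Il1b: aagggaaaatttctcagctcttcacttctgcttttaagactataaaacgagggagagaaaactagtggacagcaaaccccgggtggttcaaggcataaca
Ninj1: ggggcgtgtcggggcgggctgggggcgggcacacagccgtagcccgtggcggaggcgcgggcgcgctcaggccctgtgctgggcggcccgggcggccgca
The Ninj1 window of 300 bases was 73.3% G and C with 33 CpG sites, at the 95.4th percentile of all promoters for G and C content. The other 7 members lay between 39.3% (Il18) and 55.0% (Pycard), around the median of 51.7% over all promoters. A match is a description of the letters, not of a bound factor.

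The libraries differed widely in tissue content, and this touches every member. Acinar marker genes made up 52.9% to 73.8% of all TPM in 5 libraries but 17.9% in TP replicate 2. That library also had 6723 TPM of summed adipocyte markers, against 19.4 to 46.8 in the other 5, and 13629 genes at 1 TPM or more, against 5533 to 10537. Since TPM are shares of a fixed total, a loss of enzyme RNA raises the share of other genes. The median gene stood 3.00 log2 units above its level in the controls in TP replicate 2, 0.00 above it in TP replicate 1, and 0.97 and 1.22 higher in the TP+hucMSC-Exs libraries. Member values are therefore given both as deposited and less this shift of the median gene. In bulk tissue, fewer cells of a type and less RNA per cell cannot be told apart.

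The 10 genes shared most of their order across the 6 libraries. TP replicate 2 was the highest library for 10 of 10 members, and the same held for 91.3% of the 11477 genes tested. Both TP+hucMSC-Exs libraries lay between the 2 TP libraries and above both controls for 10 of 10 members, against 79.4% of all genes. TP replicate 1 lay within the range of the controls for 8 of 10 members, all but Ninj1 and Mlkl, against 57.7% of all genes. The TP replicates differed from each other by 16.6-fold (Ninj1) to 128-fold (Nlrp3), while the TP+hucMSC-Exs replicates differed by 1.37-fold (Casp4) to 2.56-fold (Il18). This order is thus the order of most genes in these libraries.

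**Figure D1:**
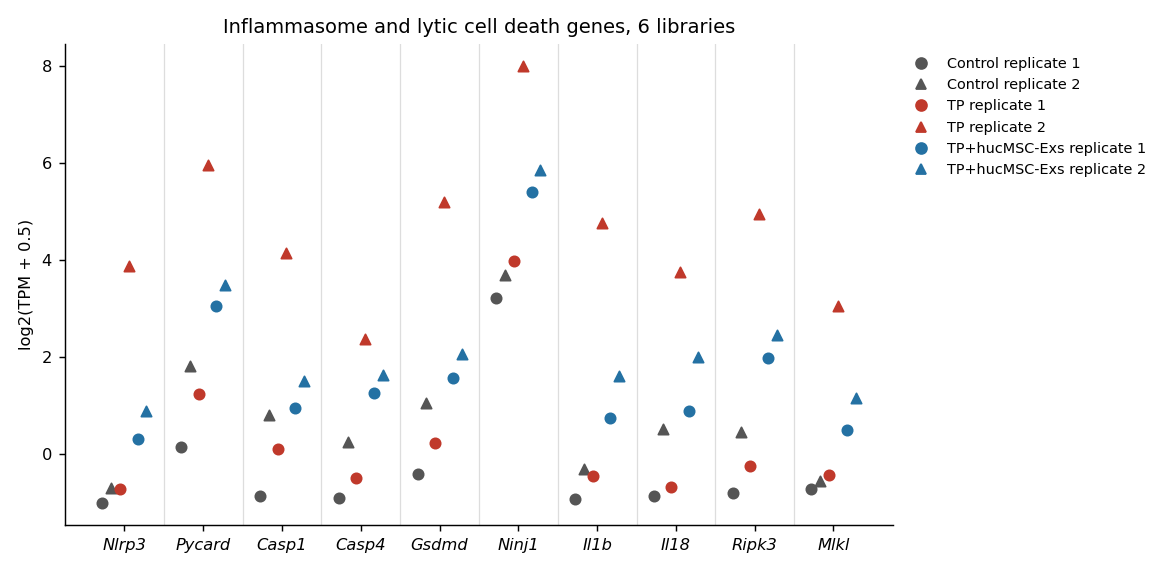
Levels of the 10 members in each of the 6 libraries, as log2(TPM + 0.5), with points coloured by group. TP replicate 2 is the highest point for all 10 genes, and TP replicate 1 lies with the controls for all but Ninj1 and Mlkl.

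Nlrp3, the sensor, stood at 1.37 TPM or less outside TP replicate 2. It was listed at 0 and 0.12 TPM in the controls, 0.11 and 14.1 TPM in TP, and 0.74 and 1.37 TPM in TP+hucMSC-Exs. The controls and TP replicate 1 sat near 0, both exosome-treated rats were above them, and the TP group overlapped both other groups. Pycard, the adaptor that links sensors to caspase-1, was the second most abundant member. It stood at 0.62 and 3.05 TPM in the controls, 1.87 and 61.4 TPM in TP, and 7.85 and 10.8 TPM in TP+hucMSC-Exs. Both treated libraries again exceeded both controls, and the TP pair enclosed them. The Pycard to Nlrp3 ratio was 25.4 in Control replicate 2, 17.0 in TP replicate 1 and 4.35 in TP replicate 2, with 10.6 and 7.85 in the treated rats. Nlrp3 was thus closest to its adaptor in the library where both were highest.

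Casp1, the protease of the canonical inflammasome, was at 0.05 and 1.26 TPM in the controls, 0.58 and 17.1 TPM in TP, and 1.43 and 2.35 TPM in TP+hucMSC-Exs. The higher control nearly reached the lower treated library, so the gap between those groups was small. Casp4, the lipopolysaccharide-sensing caspase of the non-canonical pathway, was at 0.04 and 0.70 TPM in the controls, 0.21 and 4.71 TPM in TP, and 1.91 and 2.61 TPM in TP+hucMSC-Exs. Casp4 had the lowest mean of the 10 members over the 6 libraries, though without TP replicate 2 its mean of 1.09 TPM was above those of Nlrp3 (0.468), Mlkl (0.64) and Il1b (0.864). It stood least far above the treated rats in TP replicate 2, by 1.81-fold over the higher treated library against 10.4-fold for Il1b. Among the genes tested, Casp4 ranked at the 12.9th percentile of TP replicate 2 but at the 33.5th and 36.9th percentiles of the treated libraries. In the controls and TP replicate 1 it ranked at the 6.40th, 22.5th and 10.5th percentiles, so both treated rats carried it at a higher rank than the other 4.

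The ratio of Casp4 to Casp1, a pair picked after its values were seen, separated the treated rats from all others. It was 1.34 and 1.11 in TP+hucMSC-Exs, against 0.80 and 0.556 in the controls and 0.362 and 0.275 in TP. Casp4 was thus the more abundant caspase only in the 2 treated libraries, although the control ratio of 0.80 rests on values of at most 0.05 TPM. No test of a 2 against 2 comparison of one value can give an exact permutation p below 0.333.

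Gsdmd, whose product forms the pyroptotic pore, was at 0.26 and 1.57 TPM in the controls, 0.68 and 36.2 TPM in TP, and 2.47 and 3.70 TPM in TP+hucMSC-Exs. TP replicate 1 lay between the controls, and both treated rats lay above them. Ninj1, the protein that completes membrane rupture, was by far the most abundant member. It was at 8.87 and 12.5 TPM in the controls, 15.4 and 255 TPM in TP, and 41.6 and 57.3 TPM in TP+hucMSC-Exs. Here both TP libraries were above both controls, and the treated pair was above TP replicate 1 and below TP replicate 2. Ninj1 made up 54.7% to 87.7% of the summed TPM of the 10 members in every library, and it ranked at the 90.8th to 95.9th percentile of the tested genes throughout. Its mean over the groups was 10.7 ± 2.55 TPM (SD, n = 2) in Control, 135 ± 169 in TP and 49.4 ± 11.0 in TP+hucMSC-Exs.

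Il1b, the gene of the cytokine IL-1β, differed more in rank than any other member between the mean of the controls and TP replicate 2. It was at 0.03 and 0.31 TPM in the controls, 0.24 and 26.7 TPM in TP, and 1.18 and 2.56 TPM in TP+hucMSC-Exs. Its rank went from the 5.89th and 8.20th percentiles of the controls to the 68.4th of TP replicate 2, with 11.9th in TP replicate 1 and 19.5th and 36.3rd in the treated rats. Il18, which encodes the other cytokine matured by caspase-1, was at 0.05 and 0.94 TPM in the controls, 0.13 and 13.0 TPM in TP, and 1.37 and 3.51 TPM in TP+hucMSC-Exs. TP replicate 1 was low for Il18, near the lower control, and both treated rats were above the controls.

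The ratio of the 2 cytokine genes, by contrast, was lower in both TP rats than in the other 4. The Il18 to Il1b ratio was 1.67 and 3.03 in the controls, 0.542 and 0.485 in TP, and 1.16 and 1.37 in TP+hucMSC-Exs. Il1b exceeded Il18 in both TP libraries, including the one that otherwise lay with the controls, while Il18 exceeded Il1b in the other 4. The 3 groups did not overlap in this ratio, although the values of Control replicate 1 and TP replicate 1 behind it were at most 0.24 TPM. It is 1 of several ratios taken, and the share of all gene pairs that separate in this way was not computed. Nothing is therefore read from the separation. The transcripts of the natural brakes on these cytokines were also measured. Il1rn, the receptor antagonist of IL-1, was at 0.12 and 0.46 TPM in the controls, 0.37 and 91.5 TPM in TP, and 4.93 and 8.70 TPM in TP+hucMSC-Exs. The Il1rn to Il1b ratio overlapped between all groups, at 4.0 and 1.48, 1.54 and 3.42, and 4.18 and 3.40. The ratio of Il18bp, which encodes the IL-18 binding protein, to Il18 overlapped too, at 8.20 and 1.85 in the controls, 6.38 and 1.75 in TP, and 2.18 and 1.50 in TP+hucMSC-Exs.

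**Figure D2:**
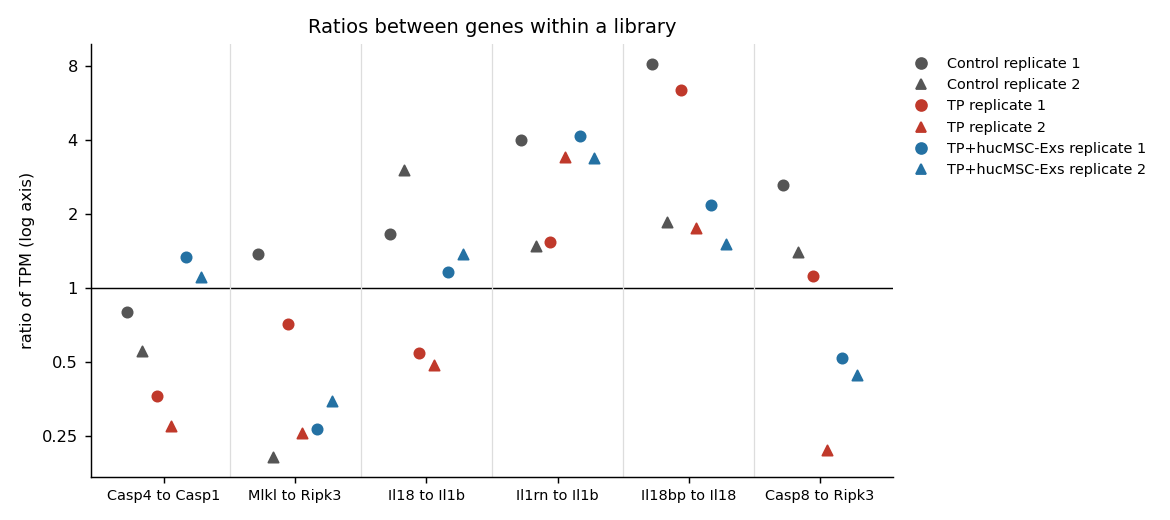
Ratios of TPM between members, or between a partner and a member, in each library, on a log axis, with points coloured by group. Il18 to Il1b lies below 1 in both TP libraries and above 1 elsewhere, and Casp4 to Casp1 lies above 1 only in the TP+hucMSC-Exs libraries.

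Of the necroptosis pair, Ripk3, the kinase, was at 0.08 and 0.88 TPM in the controls, 0.35 and 30.5 TPM in TP, and 3.44 and 5.02 TPM in TP+hucMSC-Exs. The treated rats lay clearly above both controls, with group means of 4.23 ± 1.12 and 0.48 ± 0.566 TPM (SD, n = 2). Mlkl, the membrane-permeabilizing substrate of RIPK3, was at 0.11 and 0.18 TPM in the controls, 0.25 and 7.80 TPM in TP, and 0.92 and 1.74 TPM in TP+hucMSC-Exs. For Mlkl both TP libraries were above both controls, by a narrow margin in TP replicate 1. Ripk3 exceeded Mlkl in all libraries but Control replicate 1, where both were at most 0.11 TPM.

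No member passed the test in any comparison. By limma across all 6 libraries, with Benjamini-Hochberg adjustment over 11477 genes, 0 of 10 members reached an adjusted p of 0.05 in TP against Control, beside 0.0523% of all genes. The same count was 0 of 10 in TP+hucMSC-Exs against TP, beside 0.0697%, and 0 of 10 in TP+hucMSC-Exs against Control, beside 0.209%. Without adjustment 0 of 10 members fell below 0.05 in each comparison, and limma was the only tool run. In TP against Control only 466 of the 11477 genes tested fell below 0.05 without adjustment, so nothing is read from this count. The standard error of the log2 fold change was about 1.43 for a typical gene, because the TP replicates lie so far apart. It comes from the trend over genes of like mean level, not from the spread of the gene itself. Fold changes are on the log2(TPM + 0.5) scale, which understates the change of genes below about 1 TPM.

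In TP against Control, which asks what the crush changed, 10 of 10 estimates were positive, beside 10990 of the 11477 genes tested. The members' median was 2.41 against 1.495 over all genes tested. Il1b had the largest, 2.78 ± 1.46 (log2, SE; limma adjusted p = 0.555), followed by Pycard at 2.60 ± 1.43, Ninj1 at 2.53 ± 1.36 and Ripk3 at 2.52 ± 1.43. Casp4 had the smallest, 1.26 ± 1.49, below the median gene on this scale. Its place turned with the setting: it was 1.87 against 1.70 for the median gene with a pseudocount of 0.1, 0.95 against 0.79 with TPM rescaled without acinar genes, and 0.21 against 0.03 with median-of-ratios scaling. Both TP libraries exceeded both controls in 2 of 10 members, Ninj1 and Mlkl, against 23.1% of all genes. Less the shift of the median gene, this held for 4 of 10, Nlrp3, Ninj1, Il1b and Mlkl, against 17.3%. Nlrp3 and Il1b of TP replicate 1 lay within the controls as deposited. Nlrp3, Il1b and Mlkl passed the filter of 1 TPM only through TP replicate 2. Nothing is therefore read from this count, from the members' median or from the place of Il1b as the largest. The estimates rest on TP replicate 2. Without it, Casp4, Gsdmd, Il18 and Ripk3 turned negative and 0 of 10 passed as higher, beside 0.174% of all genes. Without TP replicate 1 the estimates ran from 2.69 (Casp4) to 5.38 (Il1b), which compares TP replicate 2 alone with the controls.

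In TP+hucMSC-Exs against TP, the comparison that bears on the exosomes, the direction depended on which TP rat was used. With both, 9 of 10 estimates were negative and 1 was positive, where 2656 of the 11477 genes tested were positive. The members' median was -0.43 against -0.38 over all genes. Il1b was lowest at -0.99, with a 95% interval from -3.85 to 1.88, and Casp4 alone was positive at 0.51, with an interval from -2.41 to 3.43. The limma adjusted p was 1 for each of the 10 members. Compared with TP replicate 2 alone, 9 of 10 members passed as lower, all but Casp4, beside 79.5% of all genes. Compared with TP replicate 1 alone, all 10 estimates were positive, from 1.12 (Casp1) to 2.46 (Ripk3), with limma adjusted p from 0.0609 to 0.241, so 0 of 10 passed as higher beside 1.73% of all genes. These single-rat comparisons assume that the lone TP library varies like the other groups. A rise over TP replicate 1 was shared by most genes. The median gene stood 0.00 log2 units above the controls there, against 0.97 and 1.22 in the treated libraries. Both treated libraries lay between the 2 TP libraries for 86.3% of all genes. In 0 of 10 members did both treated libraries lie above both TP libraries, against 5.09% of all genes, or below both, against 1.62%. Less the shift of the median gene, Casp4 was the 1 member with both treated libraries above both TP libraries, against 21.5% of all genes.

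In TP+hucMSC-Exs against Control, both treated libraries exceeded both controls in 10 of 10 members, but also in 86.9% of all genes. The median estimate of the members was 1.69 against 1.09 over all genes. Ripk3 had the largest, 2.38 ± 1.43 (log2, SE; limma adjusted p = 0.800), followed by Pycard at 2.28 and Ninj1 at 2.16. Less the shift of the median gene, both treated libraries exceeded both controls in 7 of 10 members, all but Casp1, Gsdmd and Il18, against 34.6% of all genes. A fit to these 4 libraries alone passed the same 7, with limma adjusted p from 0.0141 to 0.0319, beside 52.3% of all genes called higher. The same 7 passed without TP replicate 1, beside 52.1%, and without TP replicate 2, beside 51.9%. With median-of-ratios scaling added to the fit of these 4 libraries alone, a choice made after seeing the data, 0 of 10 passed. Of all 11477 genes 189 passed in that setting, so nothing is read from this 0.

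**Figure D3:**
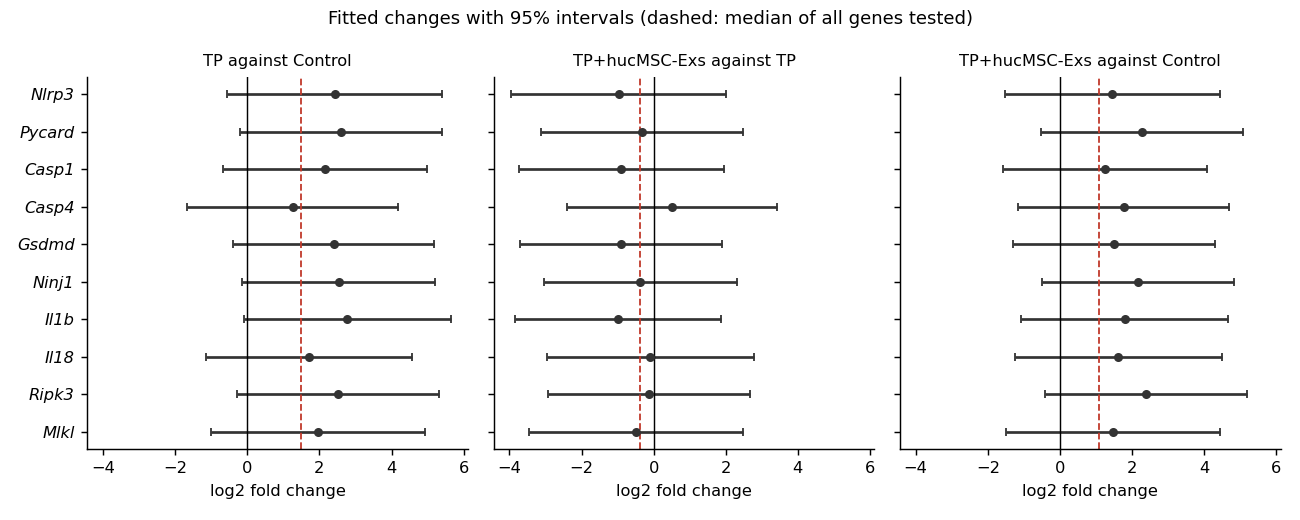
Log2 fold changes of the 10 members by limma in the 3 comparisons, with 95% confidence intervals, and the median of all genes tested as a dashed line. Every interval spans 0; the members lie on both sides of the median gene in TP+hucMSC-Exs against TP, and Casp4 is the 1 member with a positive estimate there.

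Less the shift of the median gene, the members separated from each other in TP replicate 2. Il1b stood 2.37 log2 units above its control mean, Ripk3 2.11, Pycard 1.95, Gsdmd 1.87 and Nlrp3 1.71. Ninj1 stood 1.53 above, Casp1 1.16, Il18 0.92 and Mlkl 0.68, and Casp4 lay at -0.31. In TP replicate 1 the members lay between -0.50 (Il18) and 0.52 (Ninj1). In the treated rats they lay between 0.00 (Casp1) and 1.17 (Ripk3) in replicate 1 and between 0.31 (Casp1) and 1.40 (Ripk3) in replicate 2. Casp4 stood at 0.61 and 0.73 there. That Casp4 lay below the median gene in TP replicate 2 holds for a pseudocount of 0.5 and TPM as deposited, since its estimate in TP against Control lay above the median gene with a pseudocount of 0.1 and under 2 other scalings.

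**Figure D4:**
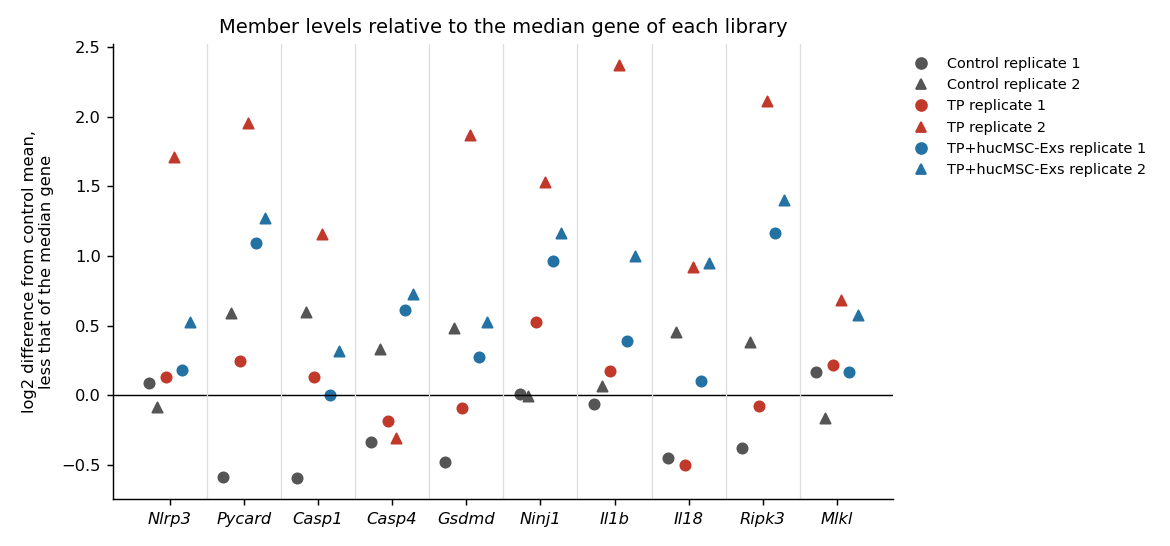
Log2(TPM + 0.5) of each member relative to its control mean, less the shift of the median gene in the same library. In TP replicate 2 the members run from -0.31 (Casp4) to 2.37 (Il1b), and in both TP+hucMSC-Exs libraries Ripk3 is the highest and Casp1 the lowest.

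Markers of monocytes and macrophages, cells known to express much of the inflammasome, had the members' library order, as did 79.4% of all genes. Their summed level, over 14 of 14 markers, was 25.2 and 162 TPM in the controls, 69.6 and 5209 TPM in TP, and 453 and 832 TPM in TP+hucMSC-Exs, and Lyz2 alone gave 3707 of the 5209. Fibroblast and stellate cell markers had this order too, with sums of 62.4 and 139, 128 and 7705, and 288 and 318 TPM. So did endothelial markers, at 6.24 and 14.15, 8.35 and 234, and 20.5 and 27.9 TPM. Neutrophil markers summed to 0.53 and 3.92, 3.38 and 597, and 70.3 and 125 TPM in the same order, and Mpo was listed at 0 in TP replicate 1 and in both treated libraries. Lymphocyte markers summed to 1.29 and 64.9 TPM in the controls, so Control replicate 2, the control with more of every member, also held more of these cells' RNA. Per 100 TPM of macrophage markers, Pycard was at 2.46 and 1.88 in the controls and 2.69 and 1.18 in TP. It was at 1.73 and 1.29 in TP+hucMSC-Exs. Ninj1 still ran from 4.90 in TP replicate 2 to 35.2 in Control replicate 1. Dividing by a marker sum that is highest in TP replicate 2 can narrow the spread of a member whatever the cell type, so no cell type is read from this. The part of any of these cell types in the members' levels was not tested.

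The order of the groups on this scale turned for several members with the choice of markers. Ripk3 was at 0.760 and 0.604 per 100 TPM of macrophage markers in the treated rats, above the 0.318 and 0.542 of the controls and the 0.503 and 0.586 of TP, and the treated rats were still highest with Lyz2 left out of the markers. Without Lyz2 they were highest also for Pycard, at 6.64 and 5.87 against at most 5.18, for Casp4, at 1.62 and 1.43 against at most 1.19, and for Mlkl, at 0.778 and 0.950 against at most 0.557. Il1b was at 0.345 and 0.513 in TP, 0.261 and 0.308 in TP+hucMSC-Exs and 0.119 and 0.191 in the controls, without overlap between groups. With Lyz2 left out, however, Il1b was at 0.531 and 1.78 in TP and 0.998 and 1.40 in the treated rats, so those groups overlapped. Gsdmd was lowest in the treated rats with Lyz2 counted, at 0.546 and 0.445, and overlapped the other groups without it. These genes were singled out after their values were seen. The share of all genes whose groups separate on this scale was not computed, so nothing is read from these separations.

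**Figure D5:**
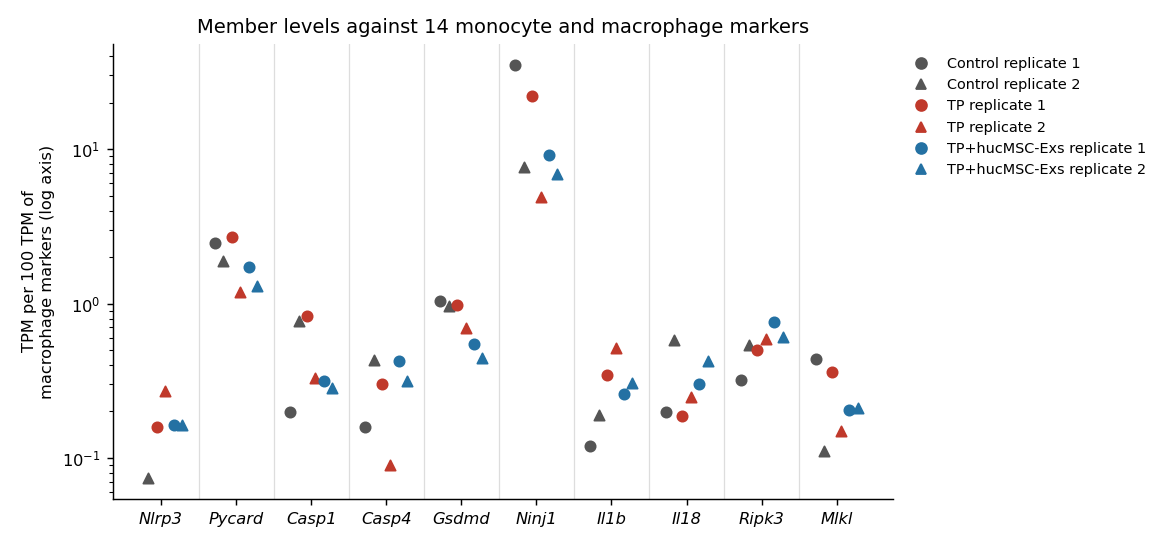
TPM of each member per 100 TPM of 14 summed monocyte and macrophage markers in each library, on a log axis, with points coloured by group. Ripk3 is highest in the TP+hucMSC-Exs libraries and Il1b in the TP libraries. With Lyz2 left out of the markers, the TP and TP+hucMSC-Exs libraries overlap for Il1b. Nlrp3 in Control replicate 1 is at 0 and cannot be drawn.

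Across the 6 libraries the members followed each other closely. Pearson's r of log2(TPM + 0.5) over the 45 pairs ran from 0.881 (Nlrp3 with Casp4) to 0.998 (Nlrp3 with Il1b), with a median of 0.971. Without TP replicate 2 it ran from 0.802 (Casp1 with Mlkl) to 0.997 (Casp4 with Ripk3). All points share the libraries' tissue content, so r is a description only. The 3 genes nearest to Casp4 were Igtp, Tapbpl and Cd8a, and only 96 genes reached an r of 0.99 with it. The nearest to Il1b were Bcl6, Vps8 and Acvr2a, with 2063 genes at that level. The nearest to Nlrp3 were Ppt2, Gask1b and Stn1, and to Casp1 Pced1a, Tmem176b and Ptpn7. Those nearest to Pycard were Tmem159, Arfip2 and Elk3, to Gsdmd Ppp1r12a, Arid2 and Nktr, and to Ninj1 Tmem115, Txnl1 and Atp6v0c. For Il18 they were Ramac, Zscan26 and Maip1, for Ripk3 Atxn7l3b, Myo1f and Cib1, and for Mlkl Tbxas1, Irf2bp1 and P2ry6. Each of these 30 correlations was at least 0.998.

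The partners of the members in the same pathways were tested in the same fit, and 0 genes of these lists passed in any comparison. Of the inflammasome sensors and cofactors, 7 of 14 in the matrix passed the filter, with means from 1.07 TPM (Nlrp1a) to 54.7 TPM (Txnip). Nlrp1a, Naip2 and Mefv passed the filter only through TP replicate 2, where they were at 5.02, 14.2 and 5.51 TPM. Nothing is therefore read from the counts of signs in this list. In TP against Control 7 of 7 estimates were positive, beside 10990 of the 11477 genes tested. In TP+hucMSC-Exs against TP 1 of 7 was positive, beside 2656 of the 11477. The positive one was Txnip, the thioredoxin-binding protein that can bind NLRP3. Txnip was at 19.1 and 33.5 TPM in the controls, 6.38 and 104 TPM in TP, and 74.8 and 90.7 TPM in TP+hucMSC-Exs. It was lower in TP replicate 1 than in any control, and high in both treated rats. Nek7, the kinase that NLRP3 needs to assemble, was at 0.75 and 2.10 TPM in the controls, 1.06 and 22.8 TPM in TP, and 2.33 and 3.59 TPM in TP+hucMSC-Exs, with TP replicate 1 between the controls as for 8 of the members.

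Of the other caspases and gasdermins, 7 of 10 passed the filter, and both treated libraries exceeded both controls in 7 of 7, where 86.9% of all genes did so. Casp6 and Casp12, named after their values were seen, were the 2 genes of this list whose treated libraries both exceeded both TP libraries, beside 5.09% of all genes. Markers of duct and reactive epithelium moved the same way, with summed levels of 852 and 1070 TPM in the treated rats against 84.3 to 140 TPM in the other 4, and their part in these values was not tested. Casp12, an inflammatory-group caspase located at the endoplasmic reticulum, was at 0.40 and 1.12 TPM in the controls, 0.22 and 2.63 TPM in TP, and 4.72 and 5.92 TPM in TP+hucMSC-Exs. Its estimate in TP+hucMSC-Exs against TP was 1.95 ± 1.44 (log2, SE; limma adjusted p = 1). Casp6 was at 1.48 and 1.00, 1.16 and 4.70, and 5.13 and 9.61 TPM in the 3 groups.

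Of the IL-1 family genes, 14 of 20 passed the filter. Il1rn had the smallest p of all listed partners in TP against Control, with an estimate of 3.54 ± 1.42 (log2, SE; limma adjusted p = 0.555), and 3.20 in TP+hucMSC-Exs against Control (adjusted p = 0.800). Irak1, a kinase below the IL-1 receptor, was the most abundant, at 10.1 and 13.1, 11.8 and 45.6, and 19.9 and 21.8 TPM in the 3 groups. Il1a, the gene of the sister cytokine IL-1α, was listed at 0 except for 1.41 TPM in TP replicate 2 and 0.04 TPM in TP+hucMSC-Exs replicate 2. Of the necroptosis partners and brakes, 13 of 15 passed the filter, and both treated libraries exceeded both controls in 11 of 13, again beside 86.9% of all genes. Tnfrsf1a, the main receptor for TNF, was at 2.36 and 4.43, 4.70 and 137, and 14.5 and 21.5 TPM, and Tradd, its adaptor, at 1.13 and 2.11, 1.44 and 36.3, and 4.97 and 7.67 TPM. Tnf itself was listed at 0 in all 6 libraries, 1 of 14485 such genes among the 34001 of the matrix. Whether its transcript was absent or was not captured cannot be told from these values. Casp8, the protease that cleaves RIPK3 and so restrains necroptosis, relative to Ripk3 was 2.62 and 1.40 in the controls, 1.11 and 0.219 in TP, and 0.520 and 0.442 in TP+hucMSC-Exs. Ripk3 thus outweighed Casp8 in both treated rats and TP replicate 2, and Casp8 outweighed Ripk3 in the controls and TP replicate 1.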

How the data were processed

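Pancreas RNA of 6 rats was sequenced, and the authors deposited a matrix of TPM per gene; each library's TPM sum to 1000000, so they hold no depth and the precision from counting is unknown. The labels place 2 separate rats in each group. GRCm38 and mm10, both of the mouse, are the builds given per the submitters' processing notes, whereas 32883 of the 34001 identifiers are rat Ensembl genes and 1118 are assembled loci; the aligner is not given in the sources used here.

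Genes with a mean of at least 1 TPM (11477) were tested with limma 3.58.1 in R 4.3.3 on log2(TPM + 0.5), with a variance trend, all 6 libraries in 1 fit with 3 residual degrees of freedom, and Benjamini-Hochberg adjustment at 0.05. The filter passed all 10 members, 7 of which would keep a mean of 1 TPM without TP replicate 2 (not Nlrp3, Il1b and Mlkl). In that fit the weight of the variance trend (prior degrees of freedom) was estimated as infinite, so each gene's variance was the trend value. Standard errors, p-values and intervals therefore hold no spread particular to a gene. The fit was tested on simulated data. The shift of the median gene is the median over tested genes of a library's log2 value less the control mean. Members and lists were chosen with earlier results of these data known. All members were named, the 2 genes of each pathway list with the highest mean TPM, those past the threshold, and the 3 genes most correlated with each member; the genes so chosen from the caspase list are not reported here, and others are marked as chosen after their values were seen, or stand as partners in ratios. Listed genes that did not match by symbol, such as Mcl1 and Ticam1, were not analysed here. Alternatives varied the pseudocount, filter, trend, scaling, samples and a replicate block, and 2 settings were added after seeing the data. Figures and summaries used Python 3.11.15 with pandas 2.3.3 and matplotlib 3.10.9.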

Additional observations from a re-analysis of the deposited data

How the results depend on the processing

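With 2 rats a group and the TP rats far apart, the counts of members past the threshold depended on single libraries. Leaving out 1 library at a time, 0 to 10 members passed in TP against Control, 0 to 9 in TP+hucMSC-Exs against TP and 0 to 7 in TP+hucMSC-Exs against Control. The highest counts came without TP replicate 1, and the 7 also came without TP replicate 2 and from the 4 libraries compared alone. Among all genes, 6, 8 and 24 passed in the 3 comparisons as deposited. Without 1 library these counts ran from 0 to 10706, from 0 to 9537 and from 1 to 6031. They were 14, 10 and 36 with a pseudocount of 0.1, and 5, 8 and 12 with a pseudocount of 1. Without a filter each was 0. They were 2, 5 and 10 with TPM rescaled without acinar genes, 0, 2 and 2 with median-of-ratios scaling, and 0, 0 and 0 with quantile normalization. The groups compared alone gave 0, 1 and 6056. Of the settings added after seeing the data, median-of-ratios scaling without TP replicate 2 gave 17, 19 and 154, and with only the groups compared 0, 0 and 189; in both, 0 members passed. Why the counts moved was not tested.

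The groups share replicate numbers, but the labels tie them to nothing. Deviations of same-numbered libraries correlated at 0.279 (Control with TP), 0.0804 (Control with TP+hucMSC-Exs) and 0.135 (TP with TP+hucMSC-Exs). With the replicate block 0 members passed in each comparison, and 10, 22 and 35 of all genes.

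Signs of single members turned under several settings. In TP against Control, Casp4 was -0.039 with quantile normalization, and leaving out 1 library gave -0.18 to 2.69 for Casp4, -0.088 to 4.87 for Gsdmd, -0.50 to 3.92 for Il18 and -0.074 to 5.12 for Ripk3. With median-of-ratios scaling and without TP replicate 2, Casp4 was -0.066 and Il18 -0.53. In TP+hucMSC-Exs against TP, Il18 and Ripk3 were 0.41 and 0.20 with a pseudocount of 0.1, 0.52 and 0.37 with TPM rescaled, 0.55 and 0.41 with median-of-ratios scaling over all libraries or the groups compared, and 0.36 and 0.25 with quantile normalization. Pycard and Mlkl were 0.045 and 0.057 under both median-of-ratios fits, and Ninj1 0.026 with quantile normalization. Leaving out 1 library gave -3.26 to 1.32 for Nlrp3, -2.68 to 2.03 for Pycard, -2.91 to 1.12 for Casp1, -0.93 to 1.95 for Casp4 and -3.38 to 1.58 for Gsdmd. It gave -2.37 to 1.64 for Ninj1, -3.59 to 1.62 for Il1b, -2.30 to 2.12 for Il18, -2.73 to 2.46 for Ripk3 and -2.22 to 1.25 for Mlkl, in each case lowest without TP replicate 1 and highest without TP replicate 2. With median-of-ratios scaling and without TP replicate 2 the values were 0.80 for Nlrp3, 0.76 for Pycard, 0.14 for Casp1, 0.54 for Gsdmd, 0.20 for Ninj1, 0.87 for Il1b, 1.50 for Il18, 1.56 for Ripk3 and 0.52 for Mlkl. In TP+hucMSC-Exs against Control all 10 members stayed positive under every setting run, where 10854 of the 11477 genes tested were positive in the main fit. The scalings move the median of all genes in TP against Control from 1.495 as deposited to 0.79 (rescaled), 0.03 (median-of-ratios) and -0.02 (quantile), so directions of members hold only for the scale named. TPM keep no read depth, so the precision of values below 1 TPM cannot be given.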

Other observations

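The repair and death machinery next to the members was measured as well. The products of the ESCRT-III genes bud damaged membrane off the cell and can close gasdermin pores. Of these genes 14 of 14 in the matrix passed the filter, with means from 4.04 TPM (Chmp4c) to 23.8 TPM (Chmp3). In the limma test 0 passed in any comparison. Chmp3 was at 5.92 and 9.28 TPM in the controls, 6.47 and 77.0 TPM in TP, and 19.8 and 24.5 TPM in TP+hucMSC-Exs, and Chmp2a at 6.80 and 7.86, 8.07 and 61.3, and 24.4 and 28.8 TPM. Both treated libraries exceeded both controls in 14 of 14 of these genes, where 86.9% of all genes did so. The list's median estimate in TP against Control was 1.56, against 2.41 for the 10 members and 1.495 over all genes.

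Of the genes of mitochondrial apoptosis, 12 of 14 passed the filter and 0 passed the limma test. Bax, which opens the outer mitochondrial membrane, was at 3.97 and 7.26 TPM in the controls, 6.05 and 89.3 TPM in TP, and 35.1 and 51.2 TPM in TP+hucMSC-Exs. Its estimate in TP+hucMSC-Exs against Control was 2.87 ± 1.40 (log2, SE; limma adjusted p = 0.800). Cycs, which encodes cytochrome c, was at 7.04 and 9.33, 11.8 and 93.6, and 18.0 and 21.2 TPM, and for both genes TP replicate 2 was highest and the treated rats came next. Cflar, the caspase-8-like brake on apoptosis and necroptosis, named after its values were seen, was at 0.27 and 0.61, 0.54 and 7.87, and 4.53 and 5.94 TPM.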
